A study of Homo sapiens with 3 samples.

Results

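Short nascent strand sequencing (SNS-seq) was carried out on 3 libraries of HCT116 cells. Described here are 2244 summits of 1 library that had a summit within 100 bases in both others. HCT116 is a long-established line derived from a human colorectal carcinoma. The cells were untreated, and every library came from nascent strands selected with λ-exonuclease, so the libraries were replicates 1, 2 and 3 of a single group with no contrast between conditions. The samples are from 1 cell line, and the lists were called in each replicate separately.

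The members were chosen by summit position on chromosomes 1 to 22. Replicate 2 had the fewest MACS2 summits, 62131 on these chromosomes, against 215368 in replicate 1 and 161271 in replicate 3. A summit of replicate 2 was kept when both other replicates had a summit within 100 bases of it, which is called a match here. The 2244 members were 3.61% of the summits of replicate 2 (95% Wilson interval 3.47% to 3.76%). They were 0.511% of the 438770 summits of all replicates on these chromosomes. Intervals given in this report cover counting error only, because the summits of a library are not independent samples. A summit carries a score, the −log10 of the q-value that MACS2 gave it, so that a score of 1 stands for a q of 0.1 and a score of 2 for a q of 0.01. EPIC2 lists were used as a second call of the same reads, in the form of wider regions. The depth of sequencing is unknown, as only calls were listed.

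Replication origins are the places where the DNA helicase is activated and bidirectional forks start. The origin recognition complex marks many more potential sites than a cell uses in a given S phase, and which of them fire varies from cell to cell. A nascent leading strand begins with an RNA primer, which protects it from λ-exonuclease, whereas broken DNA without a primer is digested. In an SNS-seq library the summit of a peak is thus the position where such protected strands pile up most over a population of cells.

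The first question was how often the libraries placed a summit at the same position. A match in replicate 1 only was found for 20980 summits of replicate 2 (33.8%), and a match in replicate 3 only for 2384 (3.84%). The remaining 36523 summits (58.8%) had a match in neither replicate. Replicates 1 and 2 therefore shared many more positions than replicates 2 and 3: 37.4% of the summits of replicate 2 had any match in replicate 1 and 7.45% in replicate 3. Replicate 3 also held fewer summits than replicate 1, and the part of this in the difference was not tested.

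As a background for these numbers, the summits of a replicate were displaced in a circle along each chromosome by 100 fixed offsets. With replicates 1 and 3 both displaced, 12.8 summits of replicate 2 met the rule on average (lowest 4, highest 20 over the offsets). With only replicate 3 displaced, so that the matches to replicate 1 were kept, the mean was 287 (237 to 341), and the 2244 members were 7.82 times as many. With only replicate 1 displaced, the mean was 75.6 (49 to 95), and the members were 29.7 times as many. Displacement by 10 to 50 kb, which keeps the regional density of summits, gave a mean of 373 (324 to 400) for replicate 3 and a ratio of 6.01. These ratios describe the calls. No test is given, since position is what chose the members.

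A match in replicate 3 was found for 9.66% of the summits that also had a match in replicate 1 (9.29% to 10.05%) and for 6.13% of those that had none (5.89% to 6.37%). Displaced positions of replicate 3 gave 1.24% and 1.21% for the same sets. A match in replicate 3 was thus more frequent where replicate 1 had one too, and both sets exceeded displaced positions. The difference was present inside EPIC2 regions of replicate 3, at 13.9% against 11.5%, and outside them, at 7.02% against 4.22%.

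**Figure D1:**
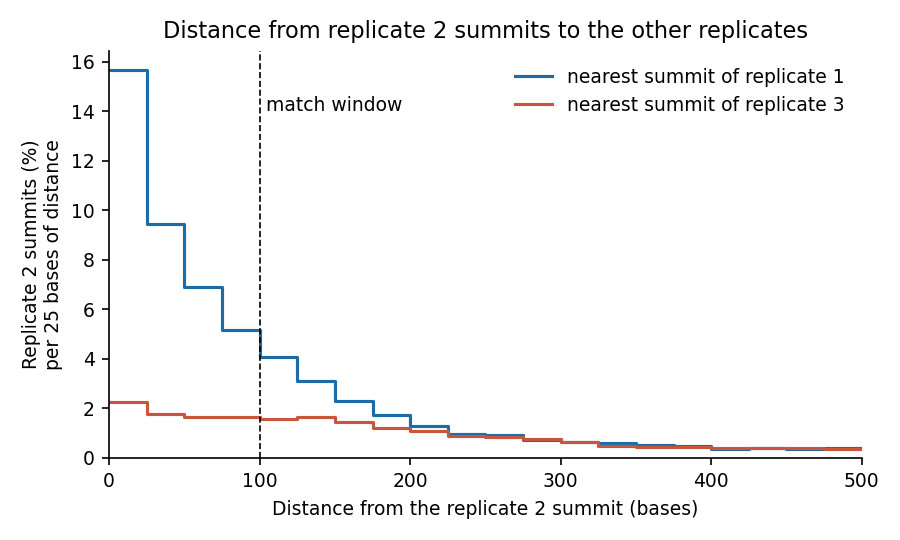
Share of the 62131 summits of replicate 2 (y axis, percent per 25 bases of distance) by the distance to the nearest summit of replicate 1 (blue) or replicate 3 (red) in bases (x axis), with the match window of 100 bases as a dashed line. The curve for replicate 1 falls from 15.7% to 5.18% within the window, while that for replicate 3 goes from 2.27% to 1.66%.

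Over the members as a set, distances to replicate 1 were shorter than those to replicate 3, though not in every member. The median distance to replicate 1 was 33 bases, with quartiles of 12 and 60. For replicate 3 it was 45 bases, with quartiles of 19 and 73. A window of 50 bases held 66.6% of the matches in replicate 1 and 54.6% of those in replicate 3, and 850 members were within 50 bases of both. The offsets had no preferred direction. Replicate 1 lay at the higher coordinate in 1137 members and at the lower in 1070, and replicate 3 in 1136 and 1086. The 3 summits of a member spanned a median of 70 bases, and the summits of replicates 1 and 3 were within 100 bases of each other in 1856 members (82.7%). No summit of either replicate served as the partner of more than 1 member.

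Over all summits of replicate 2, the plot of distances has a sharp maximum at 0 to 25 bases for replicate 1 and a low, broad one for replicate 3. Summits of replicate 3 were nearly as frequent at 100 to 125 bases (1.56%) as at 75 to 100 bases (1.66%), so the window of 100 bases cut through an even stretch of the profile. Just inside the limit, 325 members had a larger distance of 91 to 100 bases, a median score of 3.99 in replicate 2, and 49.5% of them in an EPIC2 region of replicate 2. Just outside it, 356 summits at 101 to 110 bases had a median score of 3.66, with 43.0% in such a region.

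Scores of the members had higher medians than those of unmatched summits, to a different degree in each library. How scores of 1 library scale to those of another is unknown, so percentiles within a replicate were compared. In replicate 1 the members' scores ran from 1.02 to 1305, with a median of 10.5 and quartiles of 6.22 and 18.1. Summits of replicate 1 without a match in either other replicate had a median of 4.73. In replicate 2 the members ran from 1.01 to 2272, with a median of 4.48 against 2.89 for summits without any match. Summits of replicate 2 matched in replicate 1 only had a median of 4.83, above that of the members, and those matched in replicate 3 only had 2.78. In replicate 3 they ran from 1.15 to 3497, with a median of 4.72 against 3.92. The members' range covered nearly the whole score scale in every replicate, so weak and strong summits were both among them.

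As percentiles, the members' median exceeded that of unmatched summits by 39.5 points in replicate 1. The excess was 21.8 points in replicate 2 and 14.4 points in replicate 3, with a mean of 25.3 ± 12.9 (SD, n = 3). The direction was the same in 3 of 3 replicates. Higher scores were not particular to the members. In replicate 1, the partners of summits matched in replicate 1 only had a median percentile of 80.3, against 85.7 for members. In replicate 3, the partners of summits matched in replicate 3 only had 63.3, against 62.9 for members. Within replicate 2, summits matched in replicate 1 only had 67.3, against 64.2 for members. Scores come from the calls that chose the members, so no test is given, and 3 replicates could not go below a 2-sided exact sign test p of 0.25. Above percentile 75 of their replicate's scores lay 63.9% of the members in replicate 1. The shares were 36.1% for replicate 2 and 37.2% for replicate 3. A score of at least 2 was reached by 89.6% of the members in replicate 2, against a background of 80.9% of all its summits and 74.8% of those without any match.

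**Figure D2:**
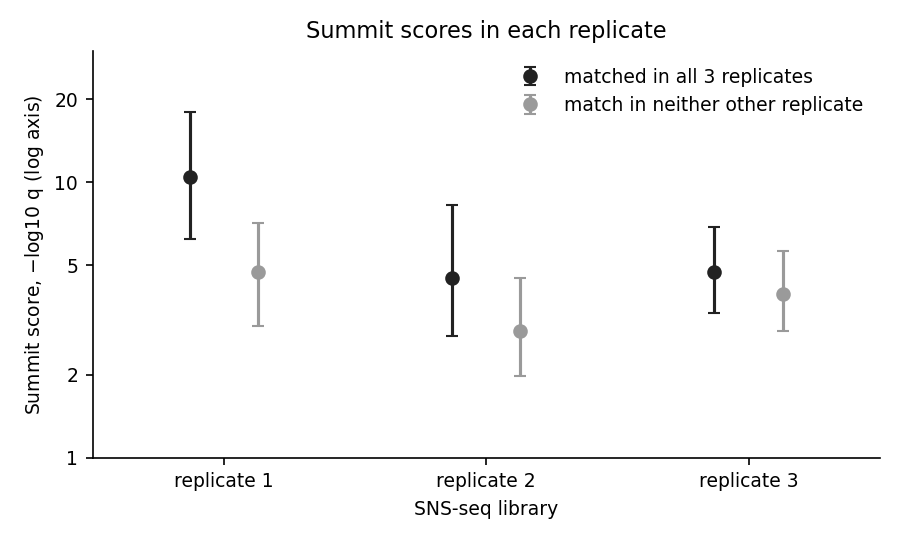
Summit score (y axis, −log10 of the q-value, log axis) in the 3 replicates (x axis) for the 2244 members (black) and for summits of that replicate with a match in neither other replicate (grey). Points are medians and bars the quartiles. The medians are 10.5 against 4.73 in replicate 1, 4.48 against 2.89 in replicate 2 and 4.72 against 3.92 in replicate 3, and the quartile ranges overlap in each.

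The same site did not rank alike in the 3 libraries. Over the 2244 members the Spearman correlation of scores was 0.48 between replicates 1 and 2. It was 0.08 between replicates 2 and 3 and also 0.08 between replicates 1 and 3. The points are sites of the same libraries and are not replicates, so no p is given. Summits of replicate 2 matched in replicate 1 only had a correlation of 0.38 with their partners, and those matched in replicate 3 only had 0.06. Of the members, 274 (12.2%) were above percentile 75 in all 3 replicates and 83 (3.70%) above percentile 90. At the other end, 94 (4.19%) were at or below the median in all of them.

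Matching depended on the score of replicate 2 in different ways for the other libraries. Its summits were put into 10 classes by score. In the lowest class, with scores up to 1.56, 16.2% of summits had a match in replicate 1, and in the highest class, from 12.1 up, 63.0% had one. The share with a match in replicate 3 was 6.34% in the lowest class, 8.32% in the fourth and 7.08% in the highest, and no class lay outside 6.34% to 8.32%. Members made up 1.77% of the lowest class (84 of 4749) and 5.76% of the highest (5.21% to 6.37%, 358 of 6214). The shares of members and of matches in replicate 1 were thus both higher in the upper classes, and that of matches in replicate 3 was not.

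**Figure D3:**
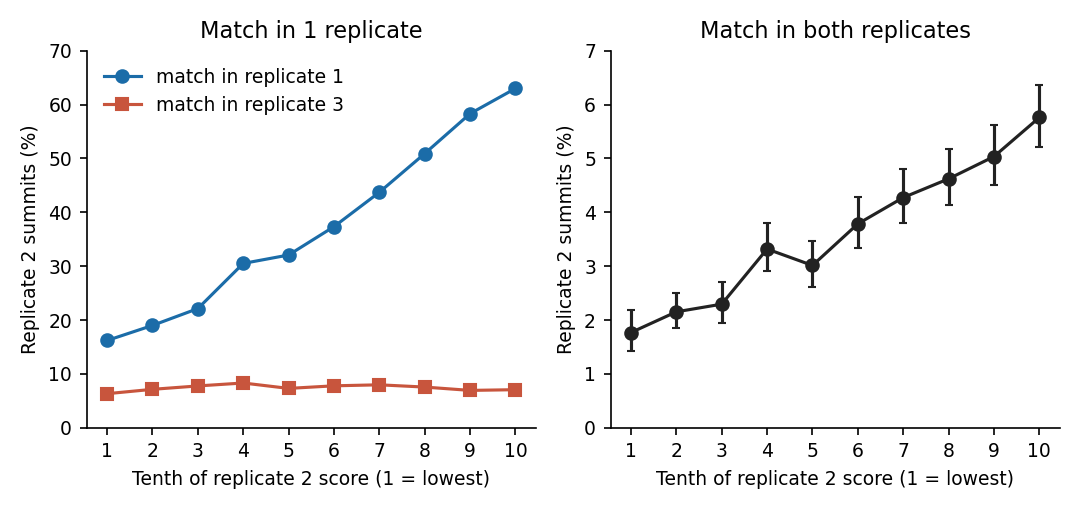
Summits of replicate 2 with a match (y axes, percent) in 10 classes of their score (x axes, 1 lowest). The left panel gives matches in replicate 1 (blue, 16.2% to 63.0%) and replicate 3 (red, between 6.34% and 8.32%), and the right panel matches in both, with 95% Wilson intervals.

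EPIC2 calls broad enrichment in steps of 200 bases, so it was asked whether the members lay in such regions more often. An EPIC2 region of replicate 1 held 80.6% of the members (78.9% to 82.2%), against a background of 53.7% for all summits of replicate 2 and 37.8% for those without any match. Regions of replicate 2 held 51.5% of the members (49.4% to 53.5%), against 44.4% and 37.7%, and 56.8% of the summits matched in replicate 1 only. Regions of replicate 3 held 55.1% (53.0% to 57.1%), against 30.6% and 24.6%. The members exceeded unmatched summits by 42.8, 13.8 and 30.5 points for the regions of replicates 1, 2 and 3, a mean of 29.0 ± 14.6 (SD, n = 3). Summits and regions come from the same reads, so these shares are descriptions. The smallest difference was for the regions of the library that also supplied the summits.

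Within 4 classes of the replicate 2 score, the difference for regions of replicate 2 was no longer present. It lay between -4.41 and 1.70 points, with a mean of -0.214. In the highest class, 83.6% of the members and 81.9% of unmatched summits lay in a region of replicate 2, and in the lowest class 17.4% and 16.8%. For regions of replicate 1 the difference lay between 33.3 and 42.0 points in the 4 classes, and for replicate 3 between 24.4 and 34.9 points. The rule asked members for a summit in replicates 1 and 3 and unmatched summits for none, so a difference in regions called from those same reads is built into the choice, and nothing is read from it.

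Regions of all 3 replicates held 738 members (32.9%), against a background of 17.3% of all summits of replicate 2 and 11.9% of unmatched ones. Regions of none held 265 members (11.8%), compared with 43.7% of unmatched summits. The members' regions were narrower than those of unmatched summits in every replicate. Their median widths were 1600, 2200 and 3400 bases in replicates 1, 2 and 3, and 2400, 2600 and 4600 bases for regions around unmatched summits. In replicates 2 and 3 this was not particular to the members. Summits matched in replicate 1 only had 2200 bases in replicate 2, and those matched in replicate 3 only had 3200 bases in replicate 3. Summits matched in replicate 1 only had 4800 bases in replicate 3, however, and those matched in replicate 3 only had 2600 bases in replicate 2. In replicate 1 these classes had 1800 and 2000 bases, so the members' regions were the narrowest there. Summits matched in replicate 1 only lay in its regions in 79.3% of cases and in regions of replicate 3 in 36.4%. Those matched in replicate 3 only lay in regions of replicate 1 in 47.3% of cases and in regions of replicate 3 in 49.1%.

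**Figure D4:**
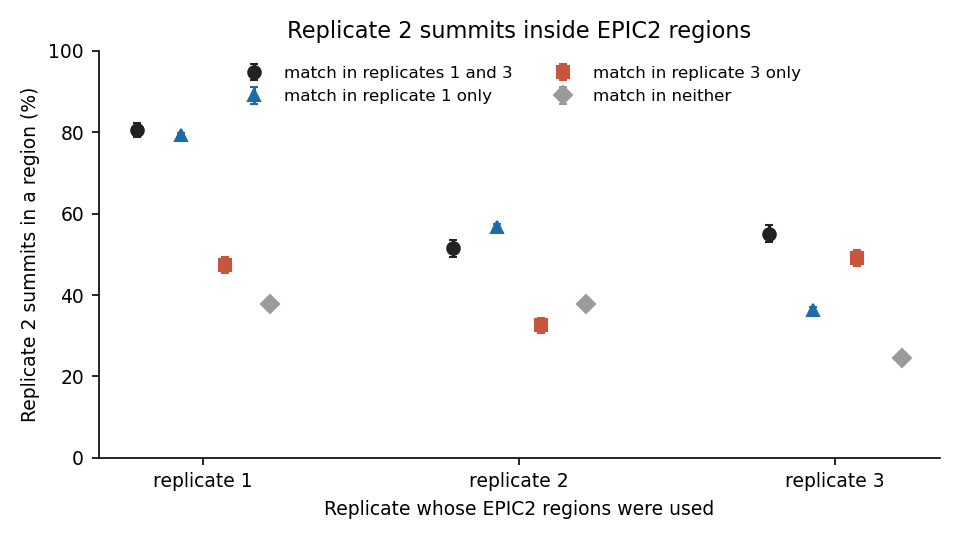
Share of replicate 2 summits inside EPIC2 regions (y axis, percent) of each replicate (x axis) for summits matched in replicates 1 and 3 (black), in replicate 1 only (blue), in replicate 3 only (red) and in neither (grey), with 95% Wilson intervals. The members reach 80.6%, 51.5% and 55.1%, and the unmatched summits 37.8%, 37.7% and 24.6%.

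Most members in an EPIC2 region of their own replicate were its sole summit. Where a region held several summits, the member was the strongest of them more often than an unmatched summit was. In replicate 1, 1328 of the 1814 partner summits that lay in a region of replicate 1 were its sole summit (73.2%), and 64.1% of summits without any match were. Of the other 486, 345 were the highest of their region (71.0%, 66.8% to 74.8%). An even rank among the summits of these regions would give 46.1%. For summits of replicate 1 without any match the share was 42.7%. In replicate 3, 58.2% of 414 were the highest (53.4% to 62.9%), against 45.6% of unmatched summits and 45.7% for an even rank. In replicate 2, 55.4% of 184 were the highest (48.2% to 62.4%), against 40.8% and 47.9%, so the interval began close to the even rank. Sole summits made up 84.1% of members in a region in replicate 2 and 66.5% in replicate 3, against 80.7% and 62.3% of unmatched summits. The ranks use the same scores, which had higher medians in members, so they are not a separate result.

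The members were spread over all 22 chromosomes, with 28 on chromosome 21 and 209 on chromosome 1. Density was taken as the fraction of members a chromosome held over the fraction it held of the 2725 Mb with calls. Chromosome 17 had the highest value, 1.97 (exact Poisson 95% interval 1.65 to 2.34, 130 members), and chromosome 19 the second, 1.63 (1.29 to 2.04, 78 members). Chromosome 8 followed at 1.60 (1.38 to 1.85, 190 members), so it and chromosome 19 were not separable by counting error. The interval of chromosome 17 overlapped those of both chromosomes 8 and 19 as well. The order of the first pair rested on replicate 3: without it, chromosome 19 had 2.46 and chromosome 17 had 2.08. The lowest were chromosome 5 at 0.641 (0.518 to 0.785, 94 members) and chromosome 13 at 0.676 (0.508 to 0.882, 54 members), whose intervals also overlapped.

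Summits without any match had densities of 1.53 on chromosome 17, 2.09 on chromosome 19, 1.14 on chromosome 8, 0.832 on chromosome 5 and 0.758 on chromosome 13. The SD over chromosomes was 0.333 for members and 0.312 for unmatched summits, and the Spearman correlation of both densities was 0.86 over 22 chromosomes. These points share the libraries, and no p is given. Members made up 4.95% of the summits of replicate 2 on chromosome 8 (4.31% to 5.69%), the highest share. They made up 2.67% on chromosome 19 (2.15% to 3.32%) and 2.59% on chromosome 22 (1.87% to 3.58%), the lowest, beside the 3.61% over all chromosomes. With this share in place of density, chromosome 19 went from among the highest to among the lowest, at 0.740 times the mean share. Chromosomes 8 and 22 are named after their values were seen.

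**Figure D5:**
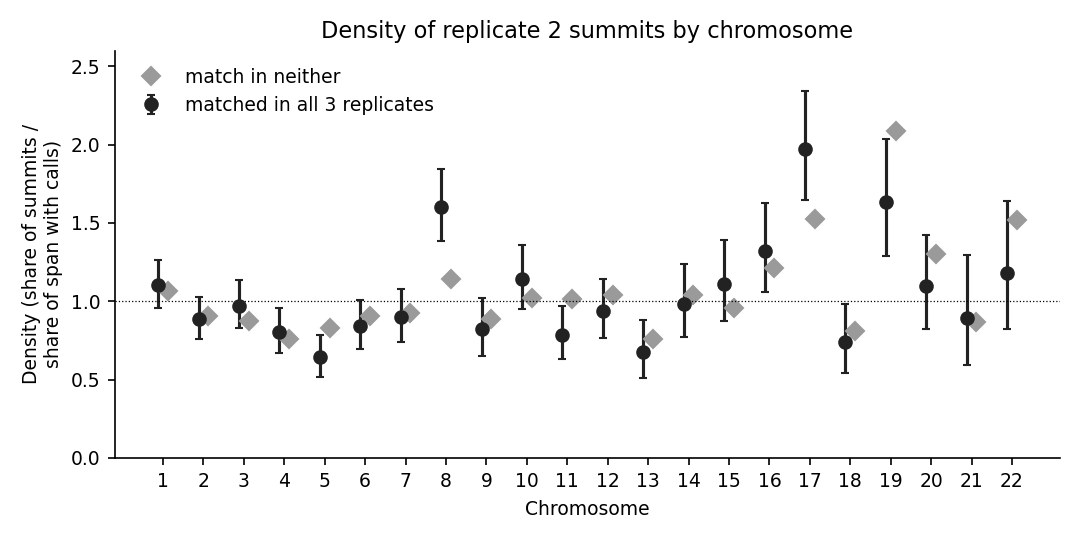
Density by chromosome (y axis, share of summits over share of the span with calls, no unit) for the members (black, exact Poisson 95% intervals) and for replicate 2 summits with a match in neither replicate (grey). Members exceed unmatched summits on chromosomes 8 (1.60 against 1.14) and 17 (1.97 against 1.53) and are below them on chromosome 19 (1.63 against 2.09).

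Neighbouring members were a median of 644 kb apart, with a 95% interval of the median from 606 to 682 kb over 2222 distances. The mean was 1237 kb, and the median was 0.521 times the mean. The same ratio was 0.565 for unmatched summits, which were 43.2 kb apart by their larger number, and 0.563 for the 2384 summits matched in replicate 3 only, which were 656 kb apart. It was 0.457 for summits matched in replicate 1 only, the lowest of the 4 classes. Under 100 kb lay 12.6% of the distances between members and 11.6% of those between summits matched in replicate 3 only. Distances under 10 kb numbered 36 between members (1.62%) and 26 between summits matched in replicate 3 only (1.10%). The smallest between members was 859 bases. Counted in windows of 1 Mb, 1345 of 2725 held no member, 838 held 1 and 19 held 5 or more.

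The number of summits around members was close to that around other summits. Within 50 kb on either side, leaving out the matched summit itself, the mean number of summits of replicate 1 was 10.7 around members and 10.4 around unmatched summits. It was 3.21 against 3.05 for other summits of replicate 2 and 8.08 against 7.42 for replicate 3. The nearest other summit of replicate 2 was a median of 12.8 kb from a member and 13.6 kb from an unmatched summit.

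A small set of members, set apart by its place, differed from the members elsewhere. There were 46 members in 1 Mb windows next to a window without any call, and 445 summits of replicate 2 lay in such windows, a share of 10.3% (7.84% to 13.5%) against 3.56% (3.42% to 3.71%) elsewhere. Their median scores were 14.7, 25.5 and 39.7 in replicates 1, 2 and 3, compared with 10.5, 4.44 and 4.64 for the 2198 members elsewhere. The larger of both distances had a median of 16 bases, against 63 bases elsewhere. An EPIC2 region of replicate 1 held 39.1% of them, against 81.4% elsewhere. For regions of the other libraries the order was the opposite, with 60.9% against 51.3% in replicate 2 and 69.6% against 54.8% in replicate 3. Scores and EPIC2 shares of the other summits in these windows were not taken. Whether these values are particular to the members there is thus unknown. What these windows hold in the genome was not analysed here. Without members within 2 windows of an empty window, the Spearman correlation over the other 2175 was 0.48 for replicates 1 and 2 and 0.03 for replicates 2 and 3.

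The windows richest in members were on chromosome 4 from 49000001 to 50000000, with 9 of 34 summits of replicate 2, and on chromosome 10 from 42000001 to 43000000, with 8 of 35. Both lay next to an empty window. The third, on chromosome 16 from 89000001 to 90000000, held 8 of 81 and lay 44 windows from an empty one.

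By the lowest of their 3 percentiles, the first 7 of the 10 highest members lay beside empty windows. Positions are single bases of hg19 in replicate 2. On chromosome 1 at 121485211 the scores in replicates 1, 2 and 3 were 1305, 2272 and 3497. At 61969354 of chromosome 7 they were 749, 1316 and 2256, with the 3 summits on the same base. The site on chromosome 6 at 58777236 had 309, 307 and 602, with the others 8 and 7 bases away. At these 3 sites the listed score was highest in replicate 3. The next were on chromosome 10 at 42380264 (100, 189 and 401), chromosome 19 at 27738489 (69.9, 138 and 339) and chromosome 4 at 49151779 (56.7, 112 and 175). Chromosome 2 at 92296855 followed with 45.8, 91.7 and 72.0, where replicate 2 was the highest. The last pair, on chromosome 11 at 51591199 (36.7, 43.5 and 56.1) and chromosome 1 at 142538450 (48.1, 41.9 and 83.2), also lay beside an empty window.

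Away from empty windows the highest member was on chromosome 17 at 41382262, the eighth of the first set. Its scores were 222, 47.6 and 69.8 in replicates 1, 2 and 3, with distances of 14 and 27 bases, and EPIC2 regions of all 3 replicates held it. The second was on chromosome 8 at 98609239 with 80.9, 40.9 and 22.4, and the third on chromosome 7 at 139458531 with 76.8, 42.9 and 14.2. On chromosome 12 at 121087991 the scores were 34.3, 50.3 and 14.1. All members elsewhere had median scores of 10.5 in replicate 1 and 4.64 in replicate 3, whose scores have no known common scale. At these 4 sites the listed score was likewise lower in replicate 3 than in replicate 1. At each of the 9 sites beside empty windows it was higher. Chromosome 2 at 89875323 was an exception, with 32.6, 32.0 and 94.2. It lay 4 windows from an empty window, in an EPIC2 region of replicate 3 and of no other replicate.

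The remaining 5 sites were on chromosome 8 at 115870578 (52.7, 101 and 12.4) and 86572463 (43.1, 29.5 and 36.7), chromosome 7 at 37663091 (21.4, 28.9 and 12.7), chromosome 2 at 149403232 (38.8, 28.5 and 11.5) and chromosome 4 at 113627476 (46.7, 57.6 and 11.3). All 5 lay in EPIC2 regions of every replicate. On chromosomes 7 and 2 the summits of replicates 1 and 3 coincided within 2 bases of each other while that of replicate 2 lay over 40 bases away. Genes and sequences at these positions were not analysed here, since the reference used here is of another build.

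Summits within a few bases of each other were a small part of the set. Both other summits lay within 10 bases of that of replicate 2 in 105 members, 17 of them beside empty windows. Away from empty windows, members with both distances up to 25 bases had median percentiles of 88.7, 67.5 and 65.8 in replicates 1, 2 and 3 (298 members), and those with the larger distance at 76 to 100 bases had 86.1, 62.3 and 62.5 (748 members). The classes between did not lie in order, since members at 51 to 75 bases had 83.7, 60.0 and 61.5 (633 members).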

How the data were processed

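SNS-seq was done on untreated HCT116 cells in triplicate, and nothing in the labels says whether the replicates were separate cultures. Per the study's methods and the submitters' processing notes, the authors used Bowtie2 2.3.4.2 with hg19, Picard 2.18.17 for duplicates, and MACS2 2.1.0.20151222 (q of 0.1) and EPIC2 (FDR of 0.1) on each replicate. The sources used here do not give a control library. The score in the deposited MACS2 summit lists was taken as −log10 q, as no value exceeded a q of 0.1. The deposited EPIC2 score is of unstated kind and served only to keep regions above the median score as an alternative.

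On chromosomes 1 to 22, the nearest summit within 100 bases was a match. Displacement used 100 evenly spaced circular offsets, or 10 offsets of 10 to 50 kb, and gives no p-value. Shares have 95% Wilson intervals. The members and lists were chosen with earlier results of these data known. Named sites were the 10 members with the highest lowest-percentile of score, at most 1 per Mb, over all positions and again away from windows next to an empty one. The 2 chromosomes of highest and of lowest density and the 3 richest windows were also named. Alternatives were other windows, displacements, score limits, matched sets and denominators, and leaving out a replicate, which for densities and spacing was added after seeing the data. For scores and EPIC2 shares, leaving out a replicate only dropped it from the mean, with the members unchanged. Calls on chromosome 1 reach 249216371, beyond the last annotated base in GRCh38 (248937043), the only build given, so genes and sequences were not analysed here. Functions were tested on simulated data. Python 3.11.15, numpy 2.4.6, pandas 2.3.3, scipy 1.17.1 and matplotlib 3.10.9 were used.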

Additional observations from a re-analysis of the deposited data

Results flagged for a closer look

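Summits outside chromosomes 1 to 22 were not part of the comparisons, and some met the same rule, above the 3 that a count of 0 allows. On unplaced contigs 17 of 147 summits of replicate 2 had a match in both other replicates, a share of 11.6% (95% Wilson interval 7.35% to 17.7%), with a median larger distance of 29 bases. On chromosome X 5 of 775 did, a share of 0.645% (0.276% to 1.501%), where replicate 3 listed 705 summits and replicate 1 listed 2652. The share on chromosomes 1 to 22 was 3.61%. Chromosome Y had 3 of 18, a share of 16.7% (5.84% to 39.2%), which is not above that limit of 3. The cause was not tested for any of these places.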

How the results depend on the processing

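The number of members followed the rule closely. It was 850 with a window of 50 bases, 5447 with 200 bases and 9334 with 500 bases. With matches asked of fewer libraries the number ranged from 4628 (replicate 1 left out) to 23224 (replicate 3 left out), and 17022 summits matched between replicates 1 and 3. Wider windows and fewer replicates raise the number by construction. The ratio to displaced positions of replicate 3 was 6.01 with offsets of 10 to 50 kb, and 8.58, 7.37 and 4.41 with windows of 50, 200 and 500 bases. A score of at least 2 everywhere left 1878, replicate 1 or 3 as the matched set gave 2193 or 2090, and mutual nearest neighbours gave the same 2244.

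The mean score and EPIC2 differences kept their direction under each alternative run. Those in points stayed within 1 SD of the replicates, while the difference in log10 of the score, 0.206, is on another scale and was compared by direction alone. For regions of replicate 2 alone, the EPIC2 difference went from 13.8 points to -0.214 within 4 classes of the replicate 2 score. For regions of replicates 1 and 3 it is built into the choice of members, so nothing is read from its direction. Means of 2 replicates at a time were also taken, with the same members. They were 18.1 to 30.7 points for scores and 22.1 to 36.6 points for EPIC2 shares. Every replicate's difference was positive, so these means could not change direction. The chromosome densities over the number of replicate 2 summits were 1.13, 0.740, 0.800 and 0.917 on chromosomes 17, 19, 5 and 13. Chromosome 5 had 0.486 with a window of 50 bases. Leaving out 1 replicate, chosen after seeing the data for densities and spacing, gave 1.24 (without replicate 2) to 2.46 (without replicate 3) on chromosome 19, 0.741 to 0.794 on chromosome 5 and 0.686 to 0.891 on chromosome 13. The median spacing was 1792, 257 and 146 kb with windows of 50, 200 and 500 bases, and 55.8 to 317 kb on leaving out 1 replicate, as the number of members sets it. For the densities the cause was not tested. No paired analysis was possible because there is 1 group. Read depth is unknown, so what it limits cannot be stated.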

Other observations

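Only 2 members had all 3 summits on the same base. One is the site on chromosome 7 at 61969354, beside an empty window, with scores of 749, 1316 and 2256 in replicates 1, 2 and 3. The other, on chromosome 8 at 145572760, lay 100 windows from an empty one and had low scores of 4.64, 3.45 and 5.57. Both were named after their values were seen.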
